A study of Mus musculus with 6 samples.

Results

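The non-specific lethal (NSL) complex was described through 10 genes, Kansl1, Kansl1l, Kansl2, Kansl3, Mcrs1, Phf20, Phf20l1, Wdr5, Hcfc1 and Ogt, in RNA from whole mouse testes. The members were chosen by symbol, and all 10 were found among the 53700 gene identifiers of the count tables. Wild-type (WT) mice were compared at postnatal day 45 with mice carrying a floxed Msl3 that was knocked out conditionally (cKO), 3 animals in each group. The labels give all 6 mice the strain Msl3em1Forni/C57BL/6J and the genotypes MSL3 WT and MSL3 cKO. The recombinase that acts on the floxed allele, the cells it acts in and the deleted exons are not given in the sources used here. Each library is labelled as a biological replicate, and the series asks whether losing Msl3 alters spermatogenesis.

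Kat8 is a histone acetyltransferase that works in a pair of complexes. In the male-specific lethal (MSL) complex, which holds Msl1, Msl2 and Msl3, it acetylates histone H4. In the NSL complex it sits at the promoters of broadly expressed genes. Kansl1 is the scaffold that binds Kat8 and Wdr5, and Kansl2, Kansl3 and Mcrs1 are further core subunits. Phf20 carries Tudor domains and a PHD finger that read methylated proteins, and Phf20l1 and Kansl1l are paralogs of Phf20 and Kansl1. Wdr5 also belongs to the SET1 and MLL histone methyltransferases. Hcfc1 is a coregulator that many promoter-bound factors recruit. Ogt attaches the sugar N-acetylglucosamine to proteins and cleaves the Hcfc1 precursor. Hcfc1 and Ogt lie on the X chromosome, which is silenced in male meiosis, and the other 8 genes are autosomal.

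The libraries held 56991431 to 73766444 reads assigned to genes, and 15.7% of reads (median, range 14.8% to 16.7%) fell outside single genes. The targeted gene was read first. Its level in CPM, reads scaled to library size, was 16.02, 18.9 and 15.9 in WT mice 1, 2 and 3 and 16.04, 14.8 and 15.8 in cKO mice 1, 2 and 3. The groups overlapped, so the Msl3 count did not tell the labels apart, and directions below are those of the libraries labelled cKO. Counts cover all exons of Msl3, including any that the allele keeps. Of 21902 genes tested with edgeR's quasi-likelihood test, 4 (0.0183%) passed an adjusted p of 0.05, and 2 (0.00913%) of them were higher in cKO. Markers of germ cells, Sertoli, Leydig, peritubular myoid, endothelial cells and macrophages were all detected, with 6 of 6 genes tested in each of 9 lists. Epididymis markers, from tissue that could be taken along, summed to 3.70 to 5.58 CPM and Lcn8 was at 0.

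All 10 NSL genes were expressed at P45. Between 625 and 14112 reads stood behind each value. Per kilobase of merged exons, the scale used to compare genes, Kansl3 had the highest level, with 28.1 CPM per kb (range over 6 libraries 25.9 to 30.5). Mcrs1, a forkhead-associated domain protein, followed with 20.5 (19.5 to 21.6) and Wdr5, a WD-repeat scaffold, with 17.6 (15.5 to 18.7). Kansl1 had 12.9 (12.3 to 14.02) and its paralog Kansl1l 12.8 (12.2 to 13.5) CPM per kb. Hcfc1 had 5.92 (4.94 to 7.05), Phf20 4.53 (4.08 to 4.83), Ogt 3.66 (3.04 to 4.12), Kansl2 2.91 (2.82 to 3.06) and Phf20l1 1.59 (1.37 to 1.89) CPM per kb. The core subunits thus did not share a level, with Kansl2 below Kansl3 in every library. Ranges of neighbours in this order overlapped for Kansl1 and Kansl1l, for Phf20 and Ogt, and for Ogt and Kansl2, and were apart for the other 6 pairs of neighbours. Per kilobase of the transcript with the longest coding sequence, the first 3 ranks were kept, while Kansl1l passed Kansl1, Phf20 passed Hcfc1 and Phf20l1 passed Kansl2.

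**Figure D1:**
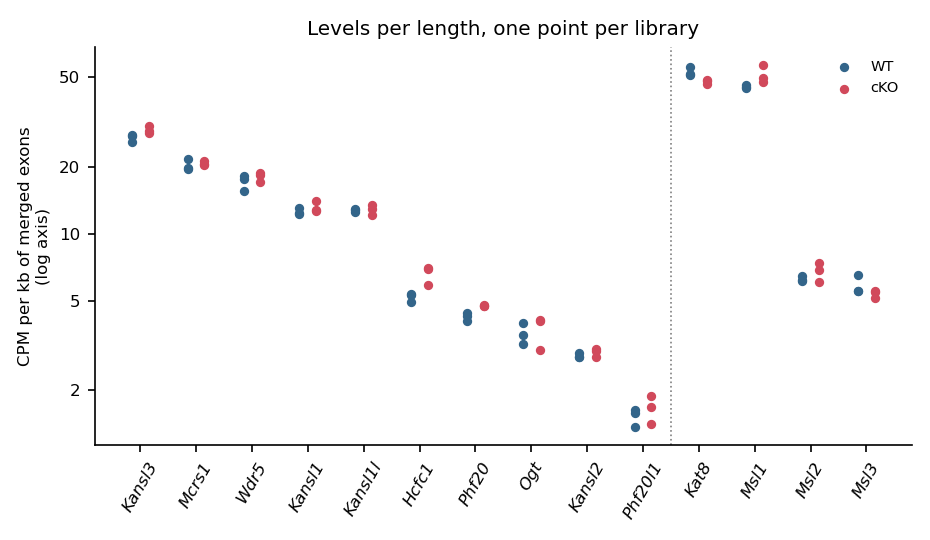
CPM per kb of merged exons on a log axis for the 10 NSL genes, in order of level, and, right of the dotted line, for Kat8 and 3 MSL genes. Each point is 1 library (WT blue, cKO red), 3 per group; Kansl3 is highest of the NSL genes at 28.1 CPM per kb, and Kat8 lies above it at 50.4 CPM per kb.

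Kat8 itself stood above all 10 genes, at 50.4 CPM per kb over the 6 libraries, and Msl1 followed at 48.4. Per kilobase of the coding transcript Kat8 had 92.2 and Msl1 57.3, below the 67.6 of Kansl3. Msl2 and Msl3 had 6.55 and 5.65 CPM per kb, in the range of Hcfc1. In single libraries the Kat8 level was 149, 161 and 149 CPM in WT and 140, 135 and 139 CPM in cKO, lower in each cKO mouse than in any WT mouse. Of all tested genes, 8.85% were lower in cKO without overlap. The Kat8 log2 difference of -0.15 (SE 0.064) did not pass, with an adjusted p of 0.342 in edgeR. With the correction for GC content and transcript length described below, it was -0.099 (edgeR adjusted p 0.672). Kat8 shares 4.22% of its exon bases with Prss8 on the opposite strand.

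None of the 10 NSL genes passed the edgeR threshold between the groups. At an unadjusted p under 0.05 there were 2, Hcfc1 and Phf20, both higher in cKO, against 7.33% of all tested genes in that direction and 13.9% in either. The groups did not overlap for 3 genes, Hcfc1, Phf20 and Kansl3, all higher in cKO, against 10% of tested genes (2201 of 21902). Protein-coding genes of like coding length, with a mean of at least 1 CPM, had higher shares. Non-overlap with cKO higher was found in 24.2% of genes at 2000 to 3000 bp, the class of Kansl3. It was found in 35.3% at 3000 to 6000 bp, that of Phf20, and 27.4% from 6000 bp, that of Hcfc1. An unadjusted edgeR p under 0.05 with cKO higher was found in 35.1% of the Phf20 class and 58.5% of the Hcfc1 class. No NSL gene was lower without overlap, against 8.85% of tested genes, and 18.9% did not overlap in either direction. All 10 log2 fold changes were above 0, where 50.7% of tested genes were, and their median was 0.07 against 0.00 over all tested genes. In the length classes of the members the share above 0 ran from 60.2% at 1000 to 2000 bp to 95.9% from 6000 bp. With library totals alone as the scaling, 9 of 10 were above 0 and the median over all genes was -0.02. DESeq2, the other tool run, called Hcfc1 alone of the 10, and 1.40% of the 13761 genes to which it gave an adjusted p.

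**Figure D2:**
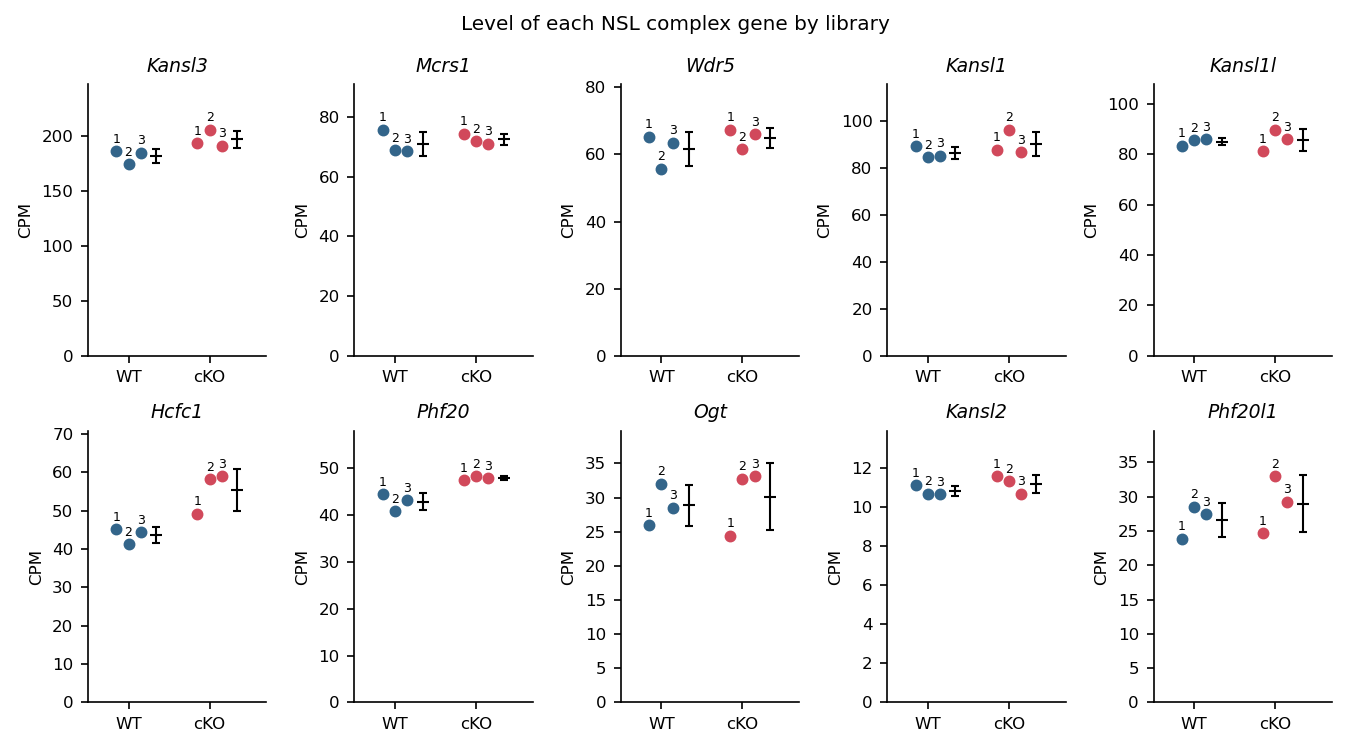
CPM of each NSL gene in the 6 libraries, numbered by replicate (WT blue, cKO red), on axes that start at 0; the black bar is the group mean with its SD (n = 3). The 3 cKO points lie above all WT points for Hcfc1, Phf20 and Kansl3, and the groups overlap for the other 7 genes.

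Hcfc1, the coregulator (ENSMUSG00000031386, chromosome X, 73942792 to 73966357, minus strand, GRCm38), had the largest difference of the 10. Its level was 45.2, 41.3 and 44.4 CPM in WT mice 1, 2 and 3 and 49.2, 58.1 and 58.9 CPM in cKO mice 1, 2 and 3. Every cKO library lay above every WT library, and cKO 1 was closer to WT than to the other two cKO libraries. The means were 43.6 ± 2.05 CPM (SD, n = 3) and 55.4 ± 5.43 CPM (SD, n = 3). On the log2 scale the difference was 0.34 (SE 0.082), or 1.27-fold with 95% limits of 1.12 and 1.44, with an edgeR adjusted p of 0.276. The call depended on the setting. Hcfc1 passed without cKO replicate 1 (0.42, edgeR adjusted p 0.0113), with no filter on low counts (edgeR adjusted p 0.00728) and in DESeq2 (adjusted p 0.0259), and in none of the other 12 alternatives. Those 3 settings called 2.82%, 2.07% and 1.40% of their genes. Without WT replicate 1, which called 0.518%, its edgeR adjusted p was 0.0909, and with the replicate number as a block, which called 0.224%, it was 0.0634.

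Long genes as a class differed between the libraries in the same direction as Hcfc1. Its longest coding sequence has 6270 bp. Among 412 protein-coding genes with at least 6000 bp of coding sequence and a mean of at least 1 CPM, the median log2 fold change was 0.27, and 95.9% were above 0. In that class 27.4% did not overlap with cKO higher, and 107 genes had a log2 fold change at least as high as that of Hcfc1. The median was lower in each shorter class, at 0.16 at 3000 to 6000 bp, 0.09 at 2000 to 3000 bp, 0.03 at 1000 to 2000 bp and -0.06 below 1000 bp. Each library's median deviation from the 6-library mean was taken by class, on the log2 scale. At 2000 to 3000 bp it was -0.01, -0.08 and -0.04 in WT and 0.02, 0.07 and 0.03 in cKO. At 3000 to 6000 bp it was -0.05, -0.09 and -0.08 in WT and -0.02, 0.16 and 0.07 in cKO. Every cKO library thus lay above every WT library in these classes. In the longest class cKO 2 and cKO 3 carried the difference. The longest class deviated from its 6-library mean by a median of 0.32 in cKO 2 and 0.17 in cKO 3 on the log2 scale, and by -0.12 in cKO 1 and -0.14, -0.08 and -0.14 in the WT libraries. A correction for GC content and transcript length in each library, chosen after seeing the data, brought Hcfc1 to 0.15 with an unadjusted p of 0.0453 and an edgeR adjusted p of 0.579, in a fit that called 0.0274% of genes.

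**Figure D3:**
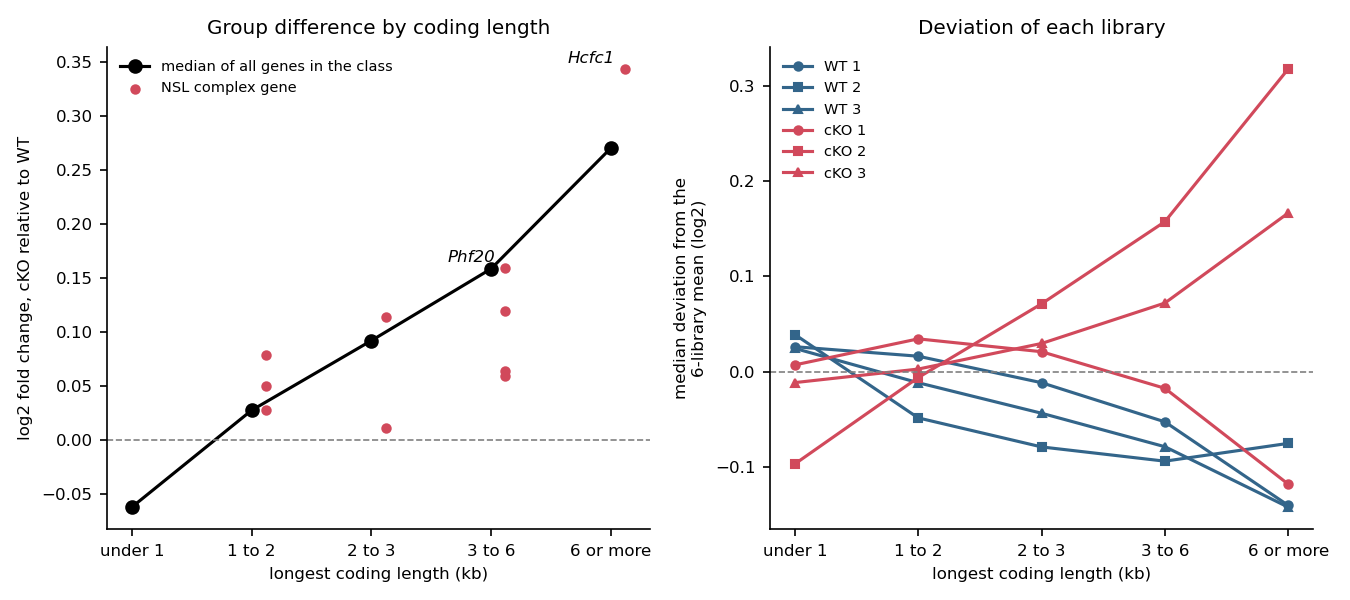
Left, log2 fold change of cKO relative to WT against class of longest coding length, with the median of all genes of the class (black, lines join the classes) and each NSL gene (red). Right, median deviation of each library from the 6-library mean by class; cKO 2 and cKO 3 reach 0.32 and 0.17 in the longest class, and the other 4 libraries lie below 0 there.

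Against the median of their own length class, 6 of the 10 NSL genes were higher and 4 lower, with differences from -0.10 for Ogt to 0.07 for Hcfc1 and a median of 0.00. With the GC content and length correction 9 of 10 were above 0, Kansl1 being at -0.04, and the median of the 10 was 0.01. No cell type marker passed the edgeR threshold, and the summed levels of 3 of 10 marker lists did not overlap between the groups. Of single tested genes, 18.9% did not overlap in either direction. Endothelial markers summed to 41.7, 41.6 and 41.0 CPM in WT and 42.6, 51.6 and 51.2 CPM in cKO, with 5 of 6 above 0. Taken singly, 2 of the 6 were higher without overlap. The high sums were those of cKO 2 and cKO 3, the libraries that were high in the longest coding class. Spermatocyte markers summed to 1397 to 1433 and 1444 to 1529 CPM, with 3 of 6 above 0 and 0 without overlap when taken singly. Round spermatid markers summed to 1087 to 1193 and 1043 to 1080 CPM, with 2 of 6 above 0 and 2 lower without overlap. No marker of these 3 lists was at 0, and the sums of the other 7 lists overlapped. In whole-testis RNA a change in the number of cells and a change in RNA per cell cannot be told apart. The part of length or cell type in the Hcfc1 difference was not tested beyond these values.

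Phf20, the methyl-reader subunit (ENSMUSG00000038116, chromosome 2, 156196466 to 156309952, plus strand), had 44.4, 40.8 and 43.1 CPM in WT and 47.3, 48.2 and 47.8 CPM in cKO. The cKO libraries were nearly level with each other and above all WT libraries. This was a 1.12-fold difference (95% limits 1.01 and 1.23), or 0.16 on the log2 scale (SE 0.066), and the edgeR adjusted p was 0.323. The median of its length class was 0.16, and with the correction for GC content and length Phf20 was at 0.07 (edgeR adjusted p 0.799). Kansl3, a core subunit (ENSMUSG00000010453, chromosome 1, 36335730 to 36369181, minus strand), had 186, 174 and 185 CPM in WT and 193, 206 and 191 CPM in cKO. The groups were apart by little, since WT 1 and cKO 3 were neighbours. The log2 difference was 0.11 (SE 0.065, edgeR adjusted p 0.450), and 0.02 after the correction.

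The other 7 genes had overlapping groups. Kansl1, the scaffold, had 89.3, 84.7 and 85.4 CPM in WT and 87.9, 96.4 and 86.9 CPM in cKO, where cKO 2 alone stood above WT 1. Kansl1l had 83.4, 85.5 and 85.9 CPM in WT and 81.3, 89.7 and 85.8 CPM in cKO, so cKO held both the lowest and the highest value. Kansl2 was at 11.1, 10.7 and 10.7 CPM in WT and 11.6, 11.3 and 10.7 CPM in cKO. Mcrs1 was highest in WT 1, with 75.7, 68.9 and 68.5 CPM in WT and 74.4, 71.9 and 71.0 CPM in cKO. Wdr5 was lowest in WT 2, with 65.3, 55.8 and 63.5 CPM in WT and 67.3, 61.6 and 66.0 CPM in cKO. Phf20l1 varied more within groups than Phf20, with 23.9, 28.6 and 27.5 CPM in WT and 24.7, 33.0 and 29.3 CPM in cKO. Replicate 1 was the lowest of its group there.

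Ogt, the glycosyltransferase on the X chromosome (ENSMUSG00000034160, 101640060 to 101684351, plus strand), varied widely within both groups. It had 25.98, 32.1 and 28.5 CPM in WT and 24.4, 32.8 and 33.1 CPM in cKO, and cKO 1 was the lowest of the 6. Its log2 fold change was 0.06 (SE 0.117, edgeR adjusted p 0.861), against 0.34 for Hcfc1 on the same chromosome. The difference turned to -0.01 without WT replicate 1, without cKO replicate 2 and without cKO replicate 3, and was 0.19 without cKO replicate 1. X-linked genes had a median of -0.06 over 856 tested. Over the 7 genes with overlapping groups, log2 fold changes ran from 0.01 for Kansl1l to 0.12 for Phf20l1. Their 95% limits lay between 0.874-fold, the lower limit for Ogt, and 1.28-fold, the upper limit for Phf20l1. The lowest upper limit of the 7, 1.11-fold, was that of Kansl1l. Leaving out 1 library moved Phf20l1 to 0.02 (without cKO replicate 2) or 0.22 (without cKO replicate 1), and Wdr5 to 0.01 (without WT replicate 2) or 0.13 (without WT replicate 1).

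**Figure D4:**
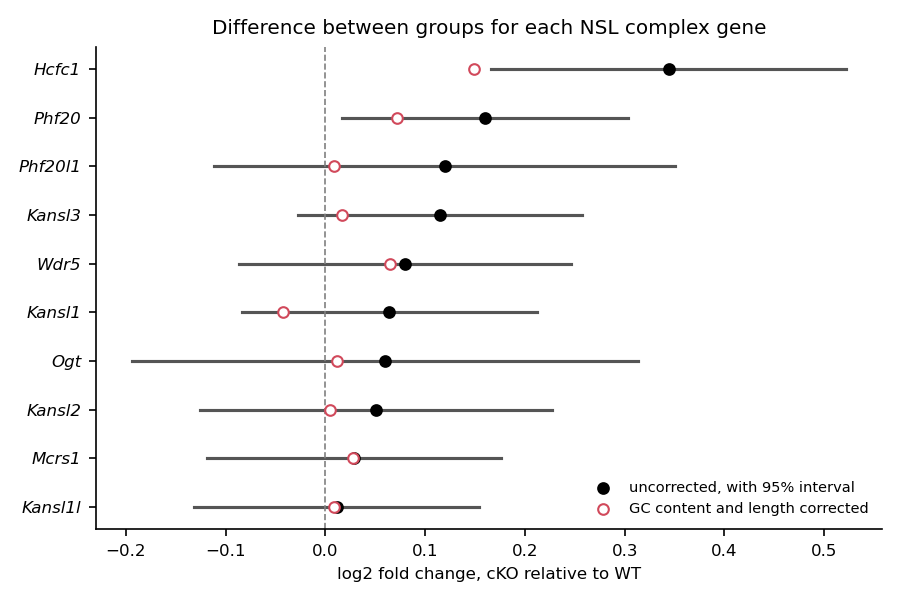
Log2 fold change of each NSL gene in cKO relative to WT from the edgeR fit (black, bar is the 95% interval) and after the GC content and length correction (open red). Hcfc1 is at 0.34 uncorrected and 0.15 corrected, and 8 of the 10 intervals cross 0.

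Promoter sequences are printed for the 3 genes whose groups did not overlap and for Ogt, the other X-linked member. RefSeq starts (GRCm38.p6) were matched for 9 of the 10 genes, and Phf20l1 was not among them. The windows run from 250 bases before to 50 after the first listed start, and are shown 5′ to 3′ on the gene's strand. Capitals mark matches, on either strand, to the YY1 core GCCATNTT, the ETS core CCGGAAG, the GC box GGGCGGGG, the CCAAT box CCAAT, the NRF1 element or the element shared by THAP11 and ZNF143. These motifs do not overlap each other in the windows shown. The Hcfc1 window is chrX:73966308-73966607, minus strand. The Phf20 window is chr2:156196397-156196696, plus strand. The Kansl3 window is chr1:36369132-36369431, minus strand. The Ogt window is chrX:101639801-101640100, plus strand.
Hcfc1: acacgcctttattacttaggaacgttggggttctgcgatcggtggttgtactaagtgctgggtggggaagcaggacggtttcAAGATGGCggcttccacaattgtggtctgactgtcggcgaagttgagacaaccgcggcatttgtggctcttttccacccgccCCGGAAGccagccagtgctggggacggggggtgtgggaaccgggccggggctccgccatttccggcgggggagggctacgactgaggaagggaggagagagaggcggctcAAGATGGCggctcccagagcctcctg
Phf20: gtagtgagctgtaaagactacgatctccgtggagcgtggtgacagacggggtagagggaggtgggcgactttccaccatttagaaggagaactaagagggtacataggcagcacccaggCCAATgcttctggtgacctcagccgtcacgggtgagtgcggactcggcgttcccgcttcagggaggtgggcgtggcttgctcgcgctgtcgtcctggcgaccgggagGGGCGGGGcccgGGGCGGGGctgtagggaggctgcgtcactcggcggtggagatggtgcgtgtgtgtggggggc
Kansl3: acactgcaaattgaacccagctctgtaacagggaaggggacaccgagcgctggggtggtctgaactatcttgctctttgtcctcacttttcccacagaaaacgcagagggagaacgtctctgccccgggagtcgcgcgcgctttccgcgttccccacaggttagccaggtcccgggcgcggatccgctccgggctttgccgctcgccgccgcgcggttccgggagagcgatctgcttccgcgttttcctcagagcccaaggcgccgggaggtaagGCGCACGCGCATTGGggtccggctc
Ogt: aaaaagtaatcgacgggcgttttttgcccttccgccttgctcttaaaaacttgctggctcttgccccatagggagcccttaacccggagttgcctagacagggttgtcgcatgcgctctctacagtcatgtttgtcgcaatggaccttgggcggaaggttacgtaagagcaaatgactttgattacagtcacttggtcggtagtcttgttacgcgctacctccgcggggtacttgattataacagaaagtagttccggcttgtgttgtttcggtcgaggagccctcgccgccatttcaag

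The 4 windows held different matches. Hcfc1 had 2 YY1 cores, starting 168 bases before and 25 bases after the start site, and 1 ETS core between them. Among the 9 members YY1 cores were also found in Kansl2, so 2 members held them at the first listed start, where 6.05% of 32851 windows did. Kansl1 held 1 at its listed start 3, which is not counted here. ETS cores were in Hcfc1 and Mcrs1, against 8.86% of windows. Phf20 had 1 CCAAT box and 2 GC boxes, and GC boxes were in 3 members, the others being Kansl1l and Mcrs1, against 17.6% of windows. Kansl3 had an NRF1 element directly followed by a CCAAT box, which make 1 run of capitals. Wdr5 also held an NRF1 element, against 4.60% of windows. CCAAT boxes were in 5 members against 37.4% of windows, and the THAP11 and ZNF143 element was in none, against 1.98%. The Ogt window had no match to the 6 motifs. GC content was 51.0% to 76.7% in the 9 windows (median 62.7%), against a median of 52.7% over all windows, and CpG dinucleotides numbered 15 to 40 against a median of 7. The count of 15 was that of Kansl1, whose listed starts 2 and 3 had 40 and 41. A match describes letters in a window and does not show a bound site.

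Ratios within a library, which do not depend on the scaling, were taken for paralogs and partners. Kansl1 and Kansl1l were near parity per kb of merged exons, with ratios of 1.04, 0.960 and 0.964 in WT and 1.05, 1.04 and 0.981 in cKO. Per kb of the coding transcript this ratio was 0.814 to 0.889, below parity in all 6 libraries. Phf20 was above Phf20l1 in all 6 libraries, by 2.49 to 3.34 times per kb of merged exons and by 1.66 to 2.22 times per kb of the coding transcript. Wdr5 was above Wdr5b, its single-exon paralog, by 11.6 to 17.3 times. Hcfc1 was below its paralog Hcfc2, with ratios of 0.161, 0.137 and 0.158 in WT and 0.174, 0.192 and 0.206 in cKO, so that all cKO libraries were higher. The difference in log2 ratio was 0.33, and 0.15 after the GC content and length correction. Hcfc2 had a log2 fold change of 0.01 and 2166 bp of coding sequence. Ogt stood below Oga (listed as Mgea5 in GENCODE M21), the enzyme that removes the same sugar, with ratios from 0.209 to 0.270 and overlapping groups.

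**Figure D5:**
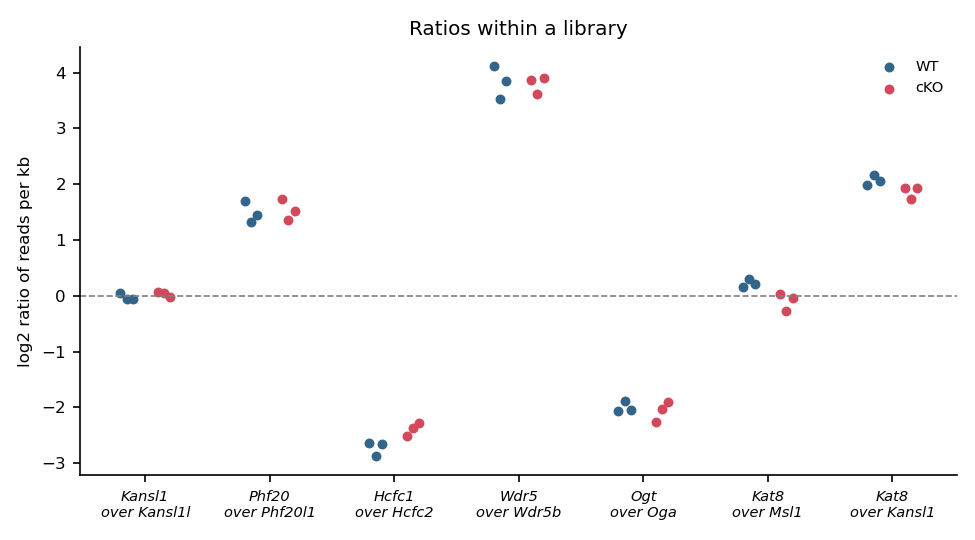
Log2 ratio of reads per kb for 7 gene pairs in each library (WT blue, cKO red, 3 per group). Hcfc1 over Hcfc2 is higher in every cKO library, Kat8 over Msl1 and Kat8 over Kansl1 are lower in every cKO library, and the other 4 ratios overlap.

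Kat8 was set against a scaffold of each of its complexes. Kat8 over Kansl1 was 3.97, 4.51 and 4.16 in WT and 3.80, 3.34 and 3.80 in cKO, a difference in log2 ratio of -0.21. Kat8 over Msl1 was 1.11, 1.23 and 1.15 in WT and 1.02, 0.824 and 0.969 in cKO, a difference of -0.32. Both ratios were lower in every cKO library than in any WT library. After the GC content and length correction the differences were -0.057 for Kat8 over Kansl1 and -0.19 for Kat8 over Msl1. Per kb of the coding transcript Kat8 over Msl1 ranged from 1.27 to 1.90 in the 6 libraries. The exact two-sided permutation test gave p = 0.1 for these ratios and for Hcfc1 over Hcfc2 (n = 3 per group), the smallest value that 3 against 3 allows. Adjusted over the 7 ratios, it was 0.233, so none passed. Kat8 has a coding length of 1374 bp, against 3297 bp for Kansl1 and 1848 bp for Msl1.

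The genes around the complex were read from lists by function, and none of their tested members passed the edgeR threshold over all genes. DESeq2 also called 0 genes of these lists. In the SET1 and MLL methyltransferases, which share Wdr5, 15 of 16 listed genes were tested, with Pagr1a listed at 0 in all libraries. Of the 15, 13 were above 0, with a median of 0.19 against 0.00 over all genes. At an unadjusted edgeR p under 0.05 there were 8, all higher, against 7.33% of all tested genes in that direction, and after the GC content and length correction there were 0. Kmt2d, a methyltransferase of enhancers with 16764 bp of coding sequence, had 40.1, 49.5 and 41.1 CPM in WT and 41.4, 85.4 and 67.3 CPM in cKO. The high values were those of cKO 2 and cKO 3, and cKO 1 lay within WT. Its log2 fold change was 0.57, and 0.18 after the correction. Setd1a, with the lowest p of this list, had a log2 fold change of 0.27 (edgeR adjusted p 0.288), and 0.10 after the correction. Dpy30, with the highest level per kb, had -0.17, and -0.0095 after the correction. Without cKO replicate 1 the test called 5 of this list, Kmt2a, Kmt2c, Kmt2d, Setd1b and Ncoa6, in a fit that called 2.82% of all genes. With the GC content and length correction the list median was 0.10.

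Of 12 Hcfc1 partners, all were above 0, where 50.7% of tested genes were, with a median of 0.11. By coding length class of these partners, the share above 0 ran from 31.4% below 1000 bp to 90.0% at 3000 to 6000 bp. At an unadjusted edgeR p under 0.05 there were 3 partners, all higher, against 7.33% of tested genes. Sin3a, a corepressor scaffold, had the lowest p and a log2 fold change of 0.22. Bap1, the deubiquitinase with the highest level per kb of this list, had 0.05. After the correction 9 of 12 partners were above 0, 0 had an unadjusted p under 0.05, and the median was 0.04. Among other MYST acetyltransferases and histone deacetylases 5 of 6 were above 0, where 50.7% of tested genes were, with a median of 0.07. Kat6a and Kat6b had an unadjusted edgeR p under 0.05, both higher, against 7.33% of tested genes in that direction. After the correction both kept an unadjusted edgeR p under 0.05 (0.0192 and 0.0291), and 0 genes of this list were called. Kat6a had 41.2, 37.8 and 37.2 CPM in WT and 41.0, 57.4 and 52.3 CPM in cKO, again with cKO 1 near WT. Its log2 fold change was 0.37, and 0.20 after the correction. Kat6b had 0.33 and 0.18 in the same order. Both genes were called without cKO replicate 1, in a fit that called 2.82% of all genes. The coding length is 6009 bp for Kat6a and 5616 bp for Kat6b. In those length classes, 58.5% and 35.1% of genes had an unadjusted edgeR p under 0.05 with cKO higher. Kat7, the highest of this list per kb, had 0.09.

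In O-GlcNAc cycling and hexosamine synthesis, which supplies the sugar that Ogt transfers, 5 of 7 genes were above 0 with a median of 0.08. Gnpnat1, an acetyltransferase of this route, was lower, at 7.21, 8.46 and 7.90 CPM in WT and 6.55, 5.99 and 7.14 CPM in cKO. Its groups did not overlap, against 8.85% of tested genes in that direction. The log2 fold change of Gnpnat1 was -0.26 with an unadjusted edgeR p of 0.0281 and an adjusted p of 0.315. After the GC content and length correction it was -0.18, with an unadjusted edgeR p of 0.0965. Gfpt1, the enzyme that opens the route and the highest of the list per kb, had 0.14. In the MSL list of 5 genes, 3 were above 0, with Msl1 at 0.17 and Msl3 at -0.12.

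Across the 6 libraries the NSL genes did not share a single pattern. Pearson correlations of log2(CPM + 0.5) over the 45 pairs ranged from -0.63 for Mcrs1 with Ogt to 0.92 for Kansl1l with Phf20l1, with a median of 0.42, and 35 were positive. These values describe 6 libraries in which the groups also differ, and are given without a test. Hcfc1 was closest to Kat6b (r = 0.96) and Kat6a (0.94) among the 55 other genes of the lists. Phf20 was closest to Foxk2 (0.96), Kansl3 to Kat7 (0.93) and Kansl1 to Msl3l2 (0.97). Ogt and Kansl1l were closest to Asxl2 (0.91 and 0.95), Phf20l1 to Oga (0.94), Wdr5 to Thap11 (0.96), Mcrs1 to Cxxc1 (0.83) and Kansl2 to Kat7 (0.82). With Kat8 the correlation was negative for each of the 10, from -0.98 for Phf20 to -0.05 for Ogt. With Msl3, which like Kat8 had a lower mean in cKO, it ran from -0.90 for Kansl3 to 0.084 for Ogt. Of the 10 NSL genes, 4, 3 and 2 were above their own 6-library mean in WT 1, 2 and 3. In cKO 1, 2 and 3 these counts were 6, 9 and 7. The members' coding length classes, from 1000 bp up, had median deviations of -0.0062, 0.071, 0.16 and 0.32 in cKO 2 over all their genes. In WT 3 these medians were -0.012, -0.044, -0.079 and -0.14.

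Reads on the other strand were a readout apart from the counts tested. They made up 0.00915% of the strand-resolved reads at Ogt, 0.0254% at Wdr5 and 0.0707% at Hcfc1, where the median tested gene had 0.409%. Kansl2 had the highest share, 4.70% (range over libraries 3.64% to 6.17%), from 43, 35 and 35 reads in WT and 39, 24 and 27 in cKO. On the CPM scale these were 0.611 ± 0.105 (SD, n = 3) and 0.475 ± 0.0540 (SD, n = 3). The lowest WT library, at 0.539 CPM, and the highest cKO library, at 0.535 CPM, differed by less than the value of 1 read. The cKO libraries were lower without overlap by that margin alone, against 4.39% of 19069 genes with such reads in that direction and 4.34% in the other. The Kansl2 gene holds snoRNA genes on its own strand, of which Snora2b shares 2.43% of its exon bases. At Kansl1l the share was 1.33%, and the unstranded count was 87.3% of the strand-specific count. Rpe and Gm38162 on the opposite strand share 8.37% and 16.7% of the Kansl1l exon bases. With unstranded counts all 10 NSL genes were again above 0 and none was called, against 0.00890% of genes.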

How the data were processed

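RNA from whole testes of 3 WT and 3 cKO mice was sequenced as single-end reads of 75 bp, per the labels' protocols. The authors deposited raw counts of reads per gene in the layout of STAR's gene counts. STAR, HTSeq, DESeq2 and the build mm10 are named in the submitters' processing notes, without versions or roles. The annotation release and the library kit are not given in the sources used here. Opposite-strand counts, 96.0% to 96.2% of strand-resolved reads, were used. GENCODE M21 (GRCm38) matched 52147 of 53700 identifiers. Lines that total reads outside single genes were left out.

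Genes were tested with edgeR 4.0.16 in R 4.3.3 (quasi-likelihood F test, TMM scaling, low counts removed by filterByExpr at its minimum of 10, Benjamini-Hochberg adjustment over 21902 genes, threshold 0.05). CPM used TMM-scaled library sizes, and deviations and correlations log2(CPM + 0.5). Ratios were compared by exact permutation. Intervals cover 95%. The fit was tested on simulated counts. Alternatives were RLE scaling, library totals, other filters, unstranded counts, a replicate block, robust fitting, DESeq2 1.42.0, a threshold of 0.1, leaving out each library and, added after seeing the data, a loess correction with a span of 0.3 for GC content and length and, for levels and ratios, length of the coding transcript.

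The members and lists were chosen with earlier results of these data known. Genes named were the 10 members, Msl3, Kat8, partners in ratios, the gene of lowest p and of highest level in each list, the closest list gene of each member and any list gene past the threshold. Kmt2d, Kat6b and Kat6a as a second neighbour, and the genes called without cKO replicate 1, were named after their values were seen.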

Additional observations from a re-analysis of the deposited data

How the results depend on the processing

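The count of called genes was 4 with all libraries. It was 757 with no filter on low counts, 2 with unstranded counts, 49 with the replicate block and 193 in DESeq2. All 4 genes were called again with no filter and with the replicate block, 2 with unstranded counts and 0 in DESeq2. When each library was left out the count was 1 to 628. It was highest without cKO replicate 1 and next, at 116, without WT replicate 1. Among NSL genes the count of 0 became 1, Hcfc1, with no filter on low counts, in DESeq2 and without cKO replicate 1 (range 0 to 1 over left-out libraries). The log2 fold change of Hcfc1 was then 0.33, 0.34 and 0.42, and 0.30 to 0.42 over left-out libraries. Kansl1 turned to -0.043 with the GC content and length correction and Kansl1l to -0.017 with library totals alone. Over left-out libraries Kansl1 ran from 0.016 to 0.092, Kansl1l from -0.023 to 0.047, Kansl2 from 0.024 to 0.083, Phf20l1 from 0.018 to 0.22, Wdr5 from 0.013 to 0.13, Mcrs1 from -0.0062 to 0.078 and Ogt from -0.014 to 0.19. The difference in log2 ratio ran there from -0.058 to 0.15 for Phf20 over Phf20l1, from -0.19 to 0.10 for Wdr5 over Wdr5b and from -0.14 to 0.030 for Ogt over Oga. With the GC content and length correction the difference turned to -0.051 for Kansl1 over Kansl1l and was 0.15 for Hcfc1 over Hcfc2 and -0.057 for Kat8 over Kansl1. Kansl2, Kansl3, Phf20, Phf20l1, Wdr5, Hcfc1 and the ratios Hcfc1 over Hcfc2, Kat8 over Msl1 and Kat8 over Kansl1 kept their direction in every alternative run. Of the 10 members, 8 to 10 were above 0 over left-out libraries, with 8 without WT replicate 1 and without cKO replicate 2. The causes were not tested.

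Deviations from the group mean, compared across genes between WT and cKO libraries of one number, had r of 0.38, 0.26 and -0.08. Between libraries of unlike number r ran from -0.41 to 0.20, so 0.38 and 0.26 lay above all of these. The labels tie no mice by number, so no pairing was assumed, and a factor shared by number was not tested. With the replicate block Hcfc1 had 0.34 (edgeR adjusted p 0.0634) and no NSL gene was called. With 3 mice a group, permutation of a ratio cannot go below 0.1, or below 0.25 with signs permuted within numbers.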
